A study of Caenorhabditis elegans with 12 samples.

Results

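The change in gene expression from the L4 stage to day 3 of adulthood was examined in wild type (WT) *Caenorhabditis elegans*. The members were the 6 WT libraries of a study of 12, with 3 libraries of L4 stage animals compared with 3 libraries of day 3 adults across every gene in the table. Of 46726 genes listed, 13674 reached 1 FPKM in at least 3 of the 6 libraries and were tested. WT was the N2 Bristol strain, and the other 6 libraries came from *alh-6(lax105)*, a mutant in a mitochondrial enzyme of proline catabolism. Synchronized L1 larvae were placed on OP50 bacteria, harvested 48 hr later as L4 animals or 120 hr later as day 3 adults, and frozen as whole worms, which the study describes as hermaphrodites. Each library therefore pools many animals and every tissue they hold, with any embryos still inside the adults. The study's methods mention washes but no step that removes laid eggs or hatched progeny, so day 3 libraries may hold these too. Expression was given as FPKM, the reads of a gene scaled to its length and to all reads of the library that were counted on genes.

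L4 is the last larval stage, in which the hermaphrodite germline makes a limited stock of sperm before it switches to oocytes for the rest of life. In the same stage the epidermis makes the adult cuticle, a collagen matrix that is laid down anew at each molt, and adults do not molt again. Adult hermaphrodites supply their oocytes with yolk from the intestine, coat each fertilized egg with a shell of chitin and proteoglycan, and load it with RNA that the embryo uses before it transcribes its own genome.

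Each WT library held between 19906810 and 22502295 reads on genes, and the medians of the groups were 20904286 at L4 and 21098413 in day 3 adults. Between 13746 and 13858 genes reached 1 FPKM in an L4 library, against 10502 to 10567 in a day 3 library. The 10 most abundant genes took 5.59% to 6.04% of the reads at L4 and 7.16% to 8.54% in day 3 adults. Pearson correlations of log2(FPKM + 0.1) were at least 0.981 within a stage and at most 0.630 between stages. Male markers were near 0 at both stages. None of the 6 measured reached the filter, and their summed level was 0.558 to 0.703 FPKM at L4 and 0.276 to 0.719 FPKM in day 3 adults. Embryo markers were near 0 at L4 and present in day 3 adults, as given below. The study describes its experiments as biological triplicates, but the labels do not say whether the replicates of a stage were separate cultures. The p-values measure the spread between these libraries, part of which may be technical. Stage cannot be told apart from the day of harvest. FPKM are relative to all reads of a library, so in whole worms a change in the amount of a tissue cannot be told apart from a change in RNA per cell, and a gene with constant RNA per animal falls in FPKM when other RNAs grow.

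From L4 to day 3, 3109 genes rose (22.7% of those tested) and 5678 fell (41.5%), at a limma adjusted p under 0.05 and a change of at least 2-fold. Of the genes tested, 402 were at least 8-fold higher in day 3 adults and 2634 at least 8-fold lower, and 60 and 1222 passed 32-fold. These counts depend on which genes passed the filter: 2987 tested genes were under 1 FPKM in every day 3 library and entered through L4 alone, against 383 that entered through day 3 alone, and for such genes the direction follows from the filter. For many lists the number of such members is given, and a list without it can hold them too. No read was found in any day 3 library for 371 protein-coding genes that averaged 1 FPKM or more at L4, and 18 genes showed the reverse. The WT groups did not overlap for 91.6% of the genes tested, so a gap between the groups is the rule in this comparison and singles out no gene. The median gene changed by -0.40 on the log2 scale, and by -0.17 after libraries were rescaled with median ratio size factors, a shift of 0.23. This rescaling gave 3849 higher and 5309 lower genes. In what follows, a value alone in brackets is the fitted log2 fold change of a gene from L4 to day 3 on log2(FPKM + 0.1), a scale that understates the change of genes with low values. Where a list is said to have no gene higher or lower, limma-voom on the recovered reads called none in that direction either. Among the genes given library by library the groups overlapped only for *fog-3* and *end-1*.

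**Figure D1:**
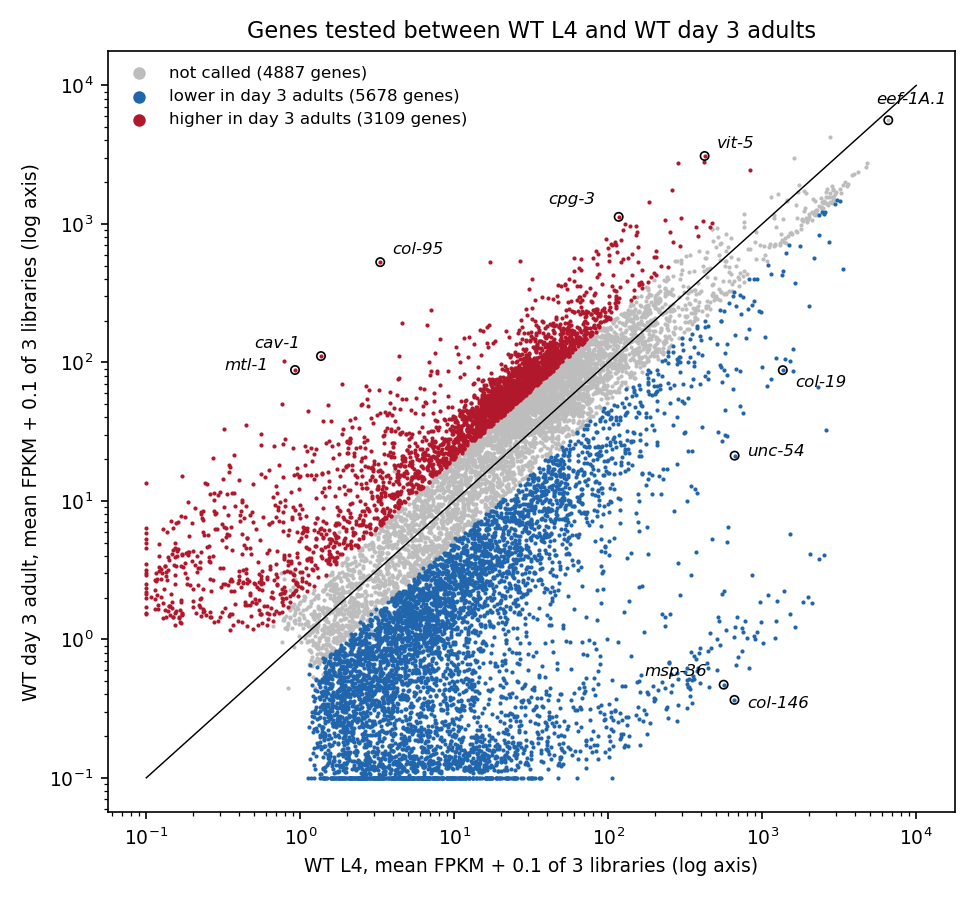
Mean FPKM + 0.1 of the 3 WT L4 libraries (horizontal log axis) against the 3 WT day 3 adult libraries (vertical log axis) for each of the 13674 genes tested, with the diagonal marking no change. Red points are the 3109 genes called higher in day 3 adults, blue points the 5678 called lower and grey points were not called, and the blue points at the lower right include genes at the top of the L4 range that are under 1 FPKM in day 3 adults.

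The 10 largest falls were all of cuticle collagens and major sperm proteins. *col-146*, a cuticle collagen (WBGene00000719, chromosome V, 9629943 to 9631012, plus strand of WBcel235), was at 641, 665 and 673 FPKM in the L4 libraries and at 0.209, 0.303 and 0.284 FPKM in the day 3 libraries. The log2 fold change was -10.83 ± 0.11 (SE), limma adjusted p = 5.77e-11. The sperm gene *msp-36* (WBGene00003432, chromosome IV, 10095433 to 10095816, plus strand) stood at 556, 524 and 603 FPKM in the L4 libraries and at 0.108, 0.315 and 0.688 FPKM in the day 3 libraries, a log2 fold change of -10.42 ± 0.50 (SE), limma adjusted p = 7.08e-06. The other falls of this rank were of *col-145*, *col-133*, *col-39*, *col-129* and *col-92* and of *msp-81*, *msp-45* and *msp-77*, with log2 fold changes from -10.39 to -10.07. In each of these 10 genes every day 3 library was below 3 FPKM and every L4 library above 300.

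The 10 largest rises came from unlike genes. *col-95* (WBGene00000670, chromosome III, 11703994 to 11705091, plus strand) is also a cuticle collagen, but went from 2.89, 3.74 and 2.98 FPKM at L4 to 554, 554 and 479 FPKM in day 3 adults, the largest rise of all with a log2 fold change of 7.33 ± 0.10 (SE), limma adjusted p = 2.72e-10. *dhs-26* (WBGene00000989, chromosome X, 3360722 to 3362493, minus strand), a short-chain dehydrogenase, was at 0.707, 0.718 and 0.628 FPKM in the L4 libraries and at 97.7, 105.3 and 103.9 FPKM in the day 3 libraries, a log2 fold change of 7.03 ± 0.09 (SE), limma adjusted p = 1.96e-10. *mtl-1*, a metallothionein, rose from 0.126, 1.28 and 1.07 to 82.1, 89.1 and 92.7 FPKM (6.95 ± 0.76 (SE), limma adjusted p = 0.000378), and the first L4 library was the lowest. *cav-1*, a caveolin of oocytes and embryos, rose from 1.08, 1.37 and 1.33 to 111, 103.6 and 118.5 FPKM (6.35 ± 0.11 (SE), limma adjusted p = 4.22e-10). The C-type lectin *clec-266*, the Skp1-related genes *skr-7* and *skr-9*, the T-box gene *sea-1*, the early embryonic transcript *vet-1* and *C45H4.14* made up the rest, with log2 fold changes of up to 6.88. Of the exon bases of *clec-266*, 371 lie opposite another gene, *kqt-1*, and the sources used here do not say whether strand was used in counting. The *skr* genes are close copies, so their reads may be split.

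At L4 the 5 highest FPKM were those of the translation factor *eef-1A.1*, *Y37E3.8* and the ribosomal protein genes *rpl-13*, *rps-23* and *rps-25*. In day 3 adults *eef-1A.1* was followed by the yolk protein genes *vit-6*, *vit-2* and *vit-5* and by the eggshell gene *cpg-2*. *eef-1A.1* itself was not called, at 6452, 6837 and 6455 FPKM in the L4 libraries and at 5590.5, 5833 and 5378 FPKM in the day 3 libraries. The log2 fold change was -0.23 and changed sign to 0.0017 after rescaling by the median ratio.

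Sperm genes had the lowest median of the 55 gene lists examined. The major sperm proteins (MSPs) are the cytoskeletal motor of the crawling sperm and also the signal that sets off oocyte maturation. All 29 of the 31 MSP genes that were tested fell, and their median change was -9.60 on the log2 scale against -0.40 for all genes tested, while the other 2, *msp-32* and *msp-58*, had no read in any WT library. Their summed level was 7537 to 7957 FPKM in the L4 libraries and 6.54 to 16.6 FPKM in the day 3 libraries, 765-fold lower, and they took 0.339% to 0.358% of the reads at L4 and 0.000289% to 0.000748% in day 3 adults. Of the 29, 24 were under 1 FPKM in every day 3 library and so passed the filter through L4 alone. The MSP genes are near copies of each other, so the value of a single gene is less certain than the sum. Among the other sperm genes, 55 of 61 tested fell and 2 rose, with a median of -6.44, and 48 of the 61 passed through L4 alone.

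*gsp-3* and *gsp-4* encode the PP1 phosphatases of sperm. *gsp-3* was at 113, 122 and 120.2 FPKM in the L4 libraries and at 0.0932, 0.0904 and 0.0847 FPKM in the day 3 libraries (-9.29 ± 0.12 (SE), limma adjusted p = 1.37e-10), and *gsp-4* at 71.4, 79.2 and 78.4 FPKM in the L4 libraries and at 0.273, 0.0379 and 0.177 FPKM in the day 3 libraries (-8.30 ± 0.33 (SE), limma adjusted p = 3.98e-08). The groups were far apart in both. *spe-9*, a surface protein of sperm that is needed for fertilization, went from 4.26, 3.76 and 4.45 to 0.399, 0.208 and 0 FPKM, a log2 fold change of -4.09. *nspd-4*, of a nematode-specific peptide family, had 106, 103 and 109.7 FPKM at L4 and no read in any day 3 library, which makes it at least 260-fold lower against a floor of 3 reads per library. The same held for *msrp-6* (at least 136-fold) and *msrp-5* (at least 156-fold), and these 3 were the most abundant L4 genes without a read in day 3 adults. *htas-1*, a histone H2A variant of sperm, was likewise at 31.5, 31.8 and 33.1 FPKM and then at 0.

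Among sperm genes *spe-39* and *zipt-7.1* rose and 4 were not called. *spe-39*, which acts in vesicle trafficking, went from 34.9, 34.8 and 34.6 to 75.4, 73.1 and 81.7 FPKM (1.14). *zipt-7.1*, a zinc transporter, went from 29.9, 30.6 and 33.1 to 65.9, 66.8 and 69.3 FPKM (1.11). *spe-44*, a transcription factor at the top of the sperm program, did not pass the fold threshold, with 11.9, 11.4 and 13.3 FPKM at L4 and 20.2, 18.6 and 19.2 FPKM in day 3 adults. The Argonautes *alg-3* and *alg-4*, which act in spermatogenesis, went from 25.6, 26.4 and 27.5 to 0.0763, 0.0148 and 0 FPKM and from 36.3, 37.8 and 39.4 to 0, 0.0188 and 0.0704 FPKM. The day 3 values of both correspond to a few reads at most.

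Regulators of the sperm-oocyte decision did not follow the sperm genes. Of 22 genes tested for the sperm-oocyte decision and sex determination, 8 rose and 2 fell. The falls were of *fbf-2* and of *htas-1*, the sperm histone variant given above rather than a regulator. *fog-1*, an RNA-binding protein that specifies the sperm fate, rose from 4.20, 4.60 and 4.55 to 20.2, 19.9 and 20.2 FPKM (2.15). *fem-3*, also on the side of sperm, rose from 20.2, 18.6 and 21.2 to 61.0, 63.9 and 69.0 FPKM (1.69). *tra-2*, on the side of oocytes, rose from 11.3, 11.4 and 10.7 to 38.5, 38.2 and 39.8 FPKM (1.798). Genes of either side were thus higher in day 3 adults. *fog-3*, which acts with *fog-1*, was not called (-0.45, limma adjusted p = 0.234), and its values of 2.41, 2.30 and 2.05 FPKM at L4 overlapped those of 0.849, 2.37 and 2.04 FPKM in day 3 adults. *gld-1*, a translational repressor needed for oogenesis, was at 291, 295 and 308 FPKM in the L4 libraries and at 523, 529 and 524 FPKM in the day 3 libraries. Its log2 fold change of 0.82 missed the fold threshold, which it passed after rescaling (1.05).

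Most oocyte and eggshell genes rose. Of the 19 genes for the eggshell and egg activation 17 rose and none fell. Their median change was 2.19 on the log2 scale, and their summed level was 1990.5 to 2142 FPKM at L4 and 10952 to 11366 FPKM in day 3 adults. *cpg-2*, a chondroitin proteoglycan of the shell, rose from 402, 405 and 451 to 2776, 2807 and 2837 FPKM (2.74 ± 0.05 (SE), limma adjusted p = 5.36e-10). *cpg-1*, a second proteoglycan of the same layer, was at 250.5, 259 and 263 FPKM in the L4 libraries and at 1715, 1881 and 1662 FPKM in the day 3 libraries (2.77). The largest rise of the group was that of *cpg-3*, from 113, 118.8 and 118 to 1094, 1126 and 1149.7 FPKM (3.27 ± 0.04 (SE), limma adjusted p = 1.1e-10). *chs-1*, the chitin synthase of the shell, rose by 2.68 on the log2 scale and *cbd-1*, a chitin-binding protein, by 2.46. The 2 genes not called were *perm-3* (0.71) and *gna-1* (-0.79), and the related *gna-2*, which the eggshell requires, rose by 2.38.

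RNA-binding proteins that hold maternal RNAs silent or localize them behaved alike, with 19 of 21 higher and none lower (median 2.14). *pos-1*, a zinc finger protein of the early embryo, rose from 124, 127 and 133 to 984, 970.1 and 1039.7 FPKM (2.97 ± 0.04 (SE), limma adjusted p = 2.72e-10). *oma-1*, a zinc finger protein of oocyte maturation, rose from 56.1, 53.5 and 55.6 to 268, 271 and 276 FPKM (2.30). *puf-5*, a Pumilio family repressor in late oocytes, rose from 96.5, 96.8 and 104.2 to 673, 647 and 701 FPKM (2.76). *nos-2*, a Nanos homolog of the primordial germ cells, had the largest change of the list, 3.46, but shares 154 exon bases with *him-14* on the opposite strand. The yolk receptor *rme-2*, through which oocytes take up yolk, rose from 109, 113 and 118.97 to 641, 627 and 624 FPKM (2.47 ± 0.04 (SE), limma adjusted p = 4.84e-10). Of the 10 genes listed for yolk uptake and other oocyte functions, *rme-2* and *cav-1* included, 9 rose. Libraries of a stage lay close together in all of these genes.

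**Figure D2:**
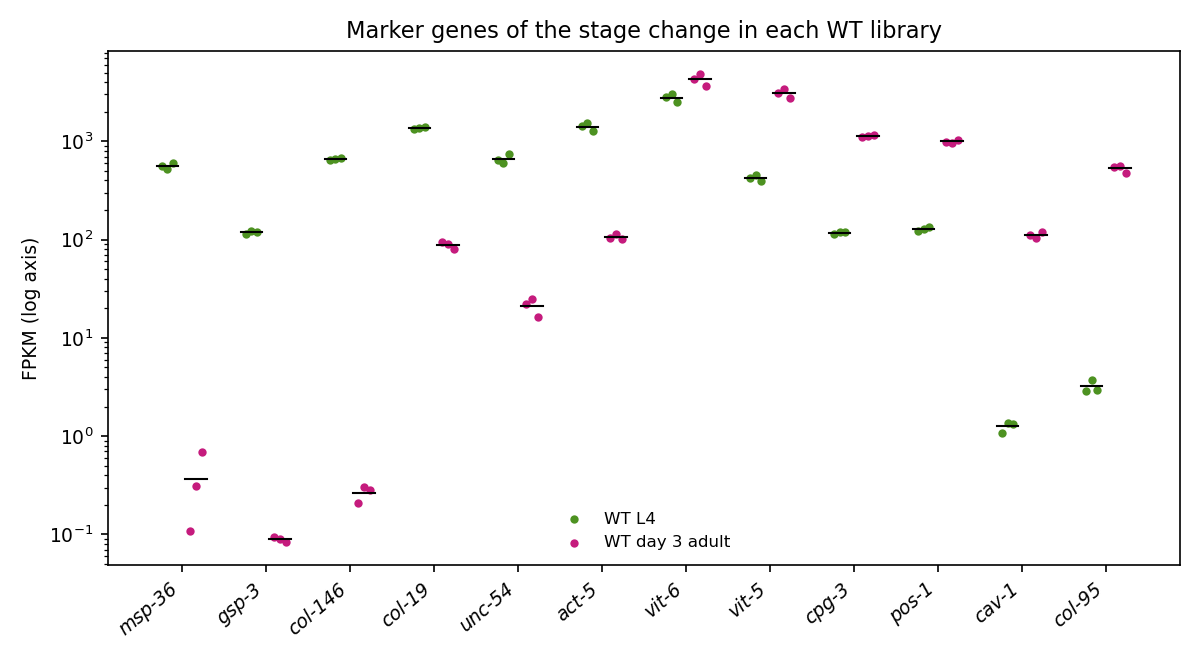
FPKM (log axis) of 12 genes in each of the 6 WT libraries, with a short line at the mean of the 3 libraries of a stage. The day 3 libraries lie below the L4 libraries for the sperm genes *msp-36* and *gsp-3*, the collagens *col-146* and *col-19*, the myosin gene *unc-54* and the intestinal actin gene *act-5*, and above them for the yolk genes *vit-6* and *vit-5*, the eggshell gene *cpg-3*, *pos-1*, *cav-1* and the collagen *col-95*.

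The vitellogenins are yolk proteins made in the adult intestine and carried to the oocytes. All 6 were higher in day 3 adults in every library, but they split by the size of the change. *vit-5* rose from 423, 453 and 391 to 3128, 3396 and 2750 FPKM (2.87 ± 0.08 (SE), limma adjusted p = 7.64e-09), *vit-4* by 2.79, *vit-3* by 2.49 and *vit-1* by 1.53. *vit-6* was already at 2806, 3022 and 2486 FPKM at L4 and reached 4326, 4824 and 3638 FPKM, a log2 fold change of 0.62 that missed the fold threshold. *vit-2* was at 1624, 1755 and 1437 FPKM in the L4 libraries and at 3079.5, 3365 and 2589.7 FPKM in the day 3 libraries. Its log2 fold change of 0.90 was not called, but passed after rescaling (1.14) and without day 3 replicate 3 (1.01). The third day 3 library was the lowest of its stage for each of the 6 genes, and the third L4 library was the lowest or level with the lowest. Together the genes took 1.98% to 2.38% of the reads at L4 and 4.85% to 6.21% in day 3 adults. *vit-3*, *vit-4* and *vit-5* are close copies, as are *vit-1* and *vit-2*, and reads may be split between them.

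Genes known to control vitellogenin transcription or yolk output were mostly lower in day 3 adults. Of 9 tested 7 fell and 1 rose. *ceh-60*, a homeodomain factor of the intestine, went from 22.7, 24.2 and 17.1 to 2.22, 2.15 and 2.48 FPKM (-3.15 ± 0.15 (SE), limma adjusted p = 6.25e-08). *lin-29*, a zinc finger factor of the larval to adult switch, went from 5.25, 5.28 and 5.14 to 0.593, 0.625 and 0.774 FPKM (-2.81). The GATA factor *elt-2*, which acts on most intestinal genes, went from 19.6, 21.4 and 17.04 to 3.90, 2.69 and 3.798 FPKM (-2.46). *rict-1*, a subunit of the TORC2 kinase complex, rose from 14.8, 14.6 and 16.14 to 56.5, 56.0 and 58.9 FPKM (1.91).

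Of 6 germline markers 1 rose and none fell, and their summed level was 1415 to 1508 FPKM at L4 and 2166.2 to 2196 FPKM in day 3 adults. P granules are RNA-protein bodies of germ cells, and 9 of 17 component genes rose (median 1.01). The rise was uneven. The *meg* genes, whose disordered proteins assemble P granules in the embryo, rose most, with *meg-4* at 2.11, 1.86 and 2.21 FPKM in the L4 libraries and at 33.4, 32.8 and 36.5 FPKM in the day 3 libraries (3.99 ± 0.10 (SE), limma adjusted p = 3.31e-09). *car-1*, at 465, 475 and 477 FPKM at L4 and 927, 929 and 916 FPKM in day 3 adults, was not called (0.97) and passed after rescaling (1.203). The core helicase gene *glh-1* was at 346, 334 and 386 FPKM in the L4 libraries and at 230.4, 224 and 222 FPKM in the day 3 libraries and was not called (-0.65). Meiotic genes changed less. Of 35 genes 21 rose and none fell, with a median of 1.13, a lowest value of 0.02 and a highest of 1.66 for *dsb-2*, which promotes meiotic breaks. *him-3*, a chromosome axis protein, was at 81.1, 78.9 and 85.1 FPKM in the L4 libraries and at 138, 131 and 142 FPKM in the day 3 libraries and was not called (0.74).

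Nearly all cell cycle genes rose. Of 32 cyclin, cyclin-dependent kinase and DNA replication genes 31 rose and none fell (median 1.85). *rnr-2*, the small subunit of ribonucleotide reductase, rose from 102, 102 and 112.3 to 726, 655 and 731 FPKM (2.74 ± 0.06 (SE), limma adjusted p = 1.23e-09). *cdc-25.2*, a phosphatase that activates cyclin-dependent kinases, rose from 3.46, 4.01 and 4.11 to 40.5, 42.7 and 40.5 FPKM (3.39). *cyb-3*, a mitotic cyclin, rose from 106, 110.3 and 118 to 710.4, 694 and 702 FPKM (2.66), and *cyd-1*, the D-type cyclin, from 0.620, 1.03 and 0.688 to 6.44, 7.47 and 7.89 FPKM (3.09). All 6 members of the MCM replicative helicase, *mcm-2* to *mcm-7*, rose, by 1.74 to 2.21. Of 18 Argonaute genes 7 rose and 4 fell, *alg-3* and *alg-4* among the falls. After rescaling 2 in place of 4 were lower. The rises were led by *nrde-3*, a nuclear Argonaute that binds small RNAs in somatic cells (4.54, 3.92 and 3.65 to 32.1, 29.9 and 33.9 FPKM, 2.96), and the germline Argonaute *wago-1* rose from 157, 153 and 161 to 362, 349 and 369 FPKM (1.196).

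Genes that are first transcribed in embryos appeared at low levels. The summed level of the 10 embryo markers was 0.588 to 0.746 FPKM at L4 and 17.4 to 20.3 FPKM in day 3 adults, with *med-1* and *tbx-35* at 0 in all 6 libraries. Only 4 passed the filter, all through day 3 alone, so their calls as higher follow from the filter, and 5 of the 9 genes tested in the wider list passed in the same way. *tbx-38*, a T-box factor of the early blastomeres, went from 0.0897, 0 and 0.0957 to 7.17, 5.37 and 8.08 FPKM (5.47 ± 0.31 (SE), limma adjusted p = 2.2e-07). *end-3*, an endoderm factor, was at 0, 0.112 and 0 FPKM in the L4 libraries and at 0.515, 0.942 and 0.988 FPKM in the day 3 libraries and *end-1* at 0.0707, 0 and 0 FPKM in the L4 libraries and at 0.147, 0.213 and 0 FPKM in the day 3 libraries. Both missed the filter. Of the wider list 4 tested genes fell, namely the posterior Hox genes *php-3* and *nob-1*, the muscle factor *hlh-1* and the gut factor *elt-7*, which larvae also express. *php-3* went from 20.53, 29.8 and 18.8 to 2.204, 1.62 and 2.04 FPKM (-3.47). Embryo markers moved with the oocyte, cell cycle and P granule genes above, and their part in those rises was not tested.

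Cuticle collagens had the lowest medians outside the sperm lists. Of 156 *col* genes 110 were tested, 99 fell and 6 rose, and the median change was -7.06 on the log2 scale. Of the 110, 51 passed the filter through L4 alone. At L4 they took 5.88% to 6.29% of all reads, and in day 3 adults 0.584% to 0.666%. *col-93*, the most abundant, went from 2562, 2642 and 2593 to 35.9, 37.6 and 23.1 FPKM (-6.36 ± 0.19 (SE), limma adjusted p = 2.5e-07). *col-19*, a collagen of the adult cuticle, was at 1322, 1364 and 1392 FPKM in the L4 libraries and at 93.6, 89.7 and 79.8 FPKM in the day 3 libraries (-3.96 ± 0.06 (SE), limma adjusted p = 2.72e-10). *col-7* and *col-62*, also collagens of the last molt, fell further, with log2 fold changes of -9.78 and -10.01. The day 3 libraries of all 4 lay below every L4 library.

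The 6 *col* genes that rose were *col-95*, *col-101*, *col-143*, *col-158*, *col-135* and *col-43*. *col-101* rose from 27.6, 24.6 and 27.6 to 565, 544 and 495 FPKM (4.32 ± 0.07 (SE), limma adjusted p = 2.72e-10), and *col-143* from 32.4, 32.02 and 31.6 to 405, 431 and 358 FPKM (3.63). The other 3, *col-158*, *col-135* and *col-43*, were below 10 FPKM in every day 3 library. Another 5 tested genes, *col-8*, *col-103*, *col-42*, *col-119* and *col-98*, were not called, and *col-119* kept 685, 689 and 601 FPKM after 821, 872 and 798 FPKM at L4 (-0.34).

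Collagens known by the body shape of their mutants fell in 12 of 14 cases (median -7.70), 7 of the 14 having passed through L4 alone. *dpy-13*, whose loss makes short animals, went from 872, 731 and 798 to 0.794, 0.722 and 1.26 FPKM (-9.64 ± 0.18 (SE), limma adjusted p = 4.76e-09). *rol-6*, whose mutants roll, went from 46.5, 37.5 and 38.4 to 0.168, 0.0814 and 0.0382 FPKM (-7.75), and *bli-1*, a strut collagen of the adult cuticle, from 12.002, 16.6 and 15.4 to 0.0821, 0.159 and 0.119 FPKM (-6.07). The 2 that rose were *dpy-14*, from 0.181, 0.368 and 0.145 to 6.58, 5.69 and 6.62 FPKM (4.33), and *dpy-17*, from 3.52, 4.26 and 4.96 to 12.62, 13.4 and 13.6 FPKM (1.63). *dpy-14* passed the filter through day 3 alone, so its direction follows from the filter. The 6 collagens of the annular furrows, made early in each molt cycle, were all below 7 FPKM at L4, and 5 fell, from *dpy-2* (-1.68) to *dpy-8* (-4.96). These 5 passed the filter through L4 alone, so their direction follows from the filter. *dpy-10* was at 2.64, 3.12 and 3.49 FPKM in the L4 libraries and at 5.19, 5.44 and 5.56 FPKM in the day 3 libraries. It was not called (0.79) but passed after rescaling (1.02), and its values are uncertain because 780 of its exon bases are shared with another gene on the same strand. Of 7 genes tested for enzymes that hydroxylate and process collagen 5 fell (median -1.67), and *pdi-2*, the protein disulfide isomerase subunit of the hydroxylase, went from 883, 937 and 827 to 283, 284 and 261 FPKM (-1.67). Of 7 epidermal markers 6 were tested, 5 fell and 1, *lin-26*, rose (1.29). Their summed level was 1422 to 1484 FPKM at L4 and 148 to 159 FPKM in day 3 adults. Most of the L4 sum was *col-19*, already given among the *col* genes. The part of tissue amount in these falls was not tested.

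**Figure D3:**
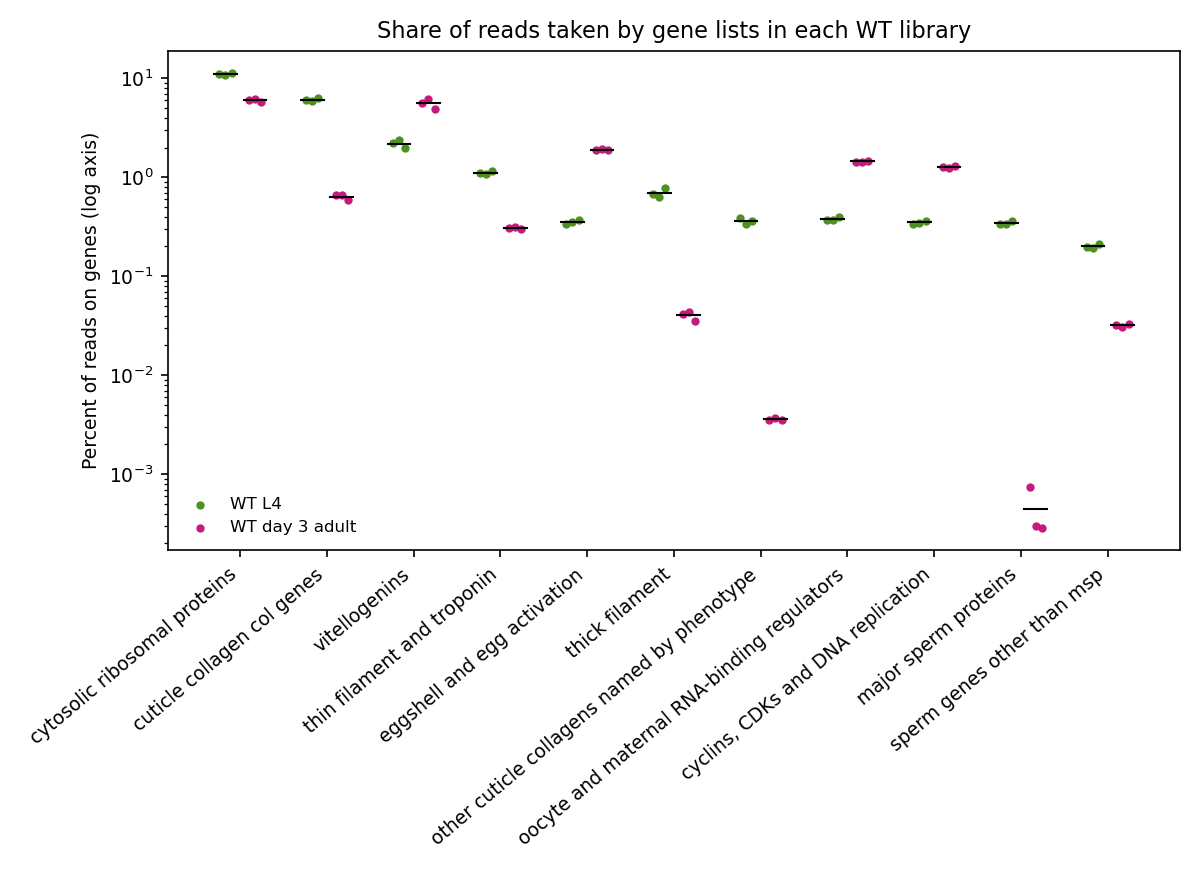
Percent of each library's reads on genes (log axis) taken by 11 gene lists in the 3 WT L4 and the 3 WT day 3 adult libraries, with a short line at the mean of a stage. Ribosomal protein, collagen, muscle and sperm genes take a smaller share in every day 3 library than in any L4 library, and vitellogenin, eggshell, oocyte RNA-binding and cell cycle genes a larger one, and the *col* genes go from about 6.06% to 0.638%.

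Most genes of the molt fell as well. Of 21 molting and apical matrix genes 18 fell and 1 rose (median -1.92), and 6 of the 21 passed the filter through L4 alone. *mlt-7*, a peroxidase that cross-links the cuticle, went from 65.2, 64.1 and 73.4 to 2.33, 2.39 and 2.28 FPKM (-4.80 ± 0.08 (SE), limma adjusted p = 5.03e-10). *mlt-10*, a marker of molting, went from 33.7, 27.05 and 27.1 to 3.29, 3.01 and 2.99 FPKM (-3.19). *noah-1*, an apical matrix protein, went from 4.16, 6.26 and 4.29 to 1.76, 2.13 and 1.95 FPKM (-1.27), a call that was lost with a pseudocount of 1 FPKM. The gene that rose was *let-653*, which lines narrow tubes (0.728, 0.819 and 0.419 to 1.90, 1.76 and 1.58 FPKM, 1.33), and that call was also lost with a pseudocount of 1 FPKM. *let-653* passed the filter through day 3 alone, so its direction follows from the filter. *nhr-23*, the nuclear receptor that drives each molt, did not fall: it was at 21.3, 21.1 and 23.1 FPKM in the L4 libraries and at 30.5, 33.1 and 31.2 FPKM in the day 3 libraries and was not called (0.53). Of 12 transcription regulators of the molt and epidermis, *nhr-23* included, 2 rose and 5 fell, which is 16.7% and 41.7% and near the 22.7% and 41.5% of all genes tested.

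Hedgehog-related proteins are secreted into the apical matrix in nematodes, and 30 of 31 tested genes fell with none higher (median -4.60), 20 of them having passed the filter through L4 alone. *grl-16* went from 514, 466 and 549 to 1.14, 0.658 and 0.925 FPKM (-9.01 ± 0.17 (SE), limma adjusted p = 1.61e-09), and *grd-6* from 91.7, 97.6 and 111 to 0.0826, 0.0534 and 0.05004 FPKM (-9.28). Patched-related membrane proteins fell in 16 of 20 cases, 7 of the 20 having passed the filter through L4 alone. The 2 that rose were *ptc-1* and *ptr-2*, which went from 58.9, 58.5 and 61.1 to 229, 227 and 234 FPKM (1.95) and from 34.2, 31.1 and 36.5 to 164, 158 and 168 FPKM (2.26), and *ptc-1* is known for its part in germline cytokinesis. Astacin proteases fell in 21 of 25 cases, 17 of the 25 having passed through L4 alone, with *nas-30* at -6.36, and *nas-3* rose from 0.126, 0.0853 and 0.0448 to 3.44, 4.18 and 4.20 FPKM (4.46). *nas-3* passed through day 3 alone, so its direction follows from the filter. Cuticlins fell in 11 of 13 cases, 7 of the 13 having passed through L4 alone. *cut-2* went from 317, 280.5 and 276 to 2.13, 2.34 and 1.53 FPKM (-7.13).

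Developmental timing genes, which order the larval stages, changed in both directions (5 higher and 7 lower of 14). *lin-42*, a Period homolog that cycles with the molts, went from 33.4, 33.3 and 31.3 to 2.91, 3.40 and 2.43 FPKM (-3.45 ± 0.13 (SE), limma adjusted p = 1.49e-08). *lin-14*, a factor of early larvae, went from 16.40, 14.5 and 12.4 to 2.28, 2.69 and 2.68 FPKM (-2.45). Against these, *lin-28*, an RNA-binding inhibitor of let-7 processing, rose from 27.5, 26.3 and 27.9 to 73.5, 68.6 and 72.2 FPKM (1.39). *lin-41*, a let-7 target that also acts in oocytes, rose from 32.9, 33.1 and 35.1 to 125, 136 and 127 FPKM (1.94 ± 0.05 (SE), limma adjusted p = 3.29e-09). *hbl-1* was low throughout, at 1.30, 1.17 and 0.908 FPKM in the L4 libraries and at 2.52, 2.31 and 2.19 FPKM in the day 3 libraries. Its rise (1.004) was lost with a pseudocount of 1 FPKM, without L4 replicate 3 (0.87) and without day 3 replicate 1 (0.95).

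Genes of vulva and uterus development, which is under way at L4, changed in both directions (12 higher and 11 lower of 25). Falls included those of the metalloprotease *zmp-1* (2.50, 2.98 and 3.18 to 0.254, 0.191 and 0.358 FPKM, -3.04) and the growth factor *egl-17*, both markers of vulval cells (2.48, 1.14 and 1.39 to 0.0614, 0.476 and 0 FPKM, -3.001). All 8 *sqv* genes, which encode enzymes of glycosaminoglycan synthesis needed both for the vulva and in the early embryo, rose, by 1.25 to 1.77, and *sqv-4* went from 53.4, 52.5 and 58.4 to 176, 165 and 178 FPKM. *lin-3*, the EGF ligand that induces the vulva, rose from 12.2, 11.9 and 13.6 to 42.1, 38.5 and 38.7 FPKM (1.65), and shares 209 exon bases with *ttr-16* on the opposite strand.

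Most muscle genes fell, with medians of -4.17 for the thick filament, -3.02 for the thin filament and -2.98 for attachment. Of 8 thick filament genes 7 fell, of 18 thin filament genes 14 and of 15 attachment genes 14, and none rose. Among the 8 thick filament genes, 4 passed the filter through L4 alone. *unc-54*, the main myosin heavy chain of the body wall, was at 643, 602 and 739 FPKM in the L4 libraries and at 22.2, 24.8 and 16.23 FPKM in the day 3 libraries (-4.98 ± 0.16 (SE), limma adjusted p = 1.46e-07). *myo-3*, the other body wall myosin, went from 62.7, 55.1 and 73.4 to 3.60, 3.98 and 3.06 FPKM (-4.13), and *pat-10*, a troponin C, from 2048, 1957 and 2067 to 270.2, 240.0 and 257 FPKM (-2.99). All 4 pharynx markers tested fell too, 2 of them having passed the filter through L4 alone. *myo-2*, a pharyngeal myosin, was at 20.9, 15.3 and 26.7 FPKM in the L4 libraries and at 0.881, 0.727 and 0.443 FPKM in the day 3 libraries (-4.76). Uncalled genes of these lists included the actin gene *act-2* (744, 768 and 782 to 1014, 1047 and 1017 FPKM, 0.42), the cofilin gene *unc-60* (0.20), the myosin chaperone gene *unc-45* (0.30) and the integrin gene *pat-3* (0.74). *act-4*, a muscle actin gene, went from 1604, 1592 and 1576 to 129.7, 129 and 117 FPKM (-3.67). The actin genes are near copies, so their reads may be split. The summed level of 6 body wall muscle markers was 3839 to 4374 FPKM at L4 and 246 to 300.2 FPKM in day 3 adults, and all 6 fell.

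Basement membrane genes fell in 14 of 15 genes tested (median -3.35), 3 of the 15 having passed the filter through L4 alone. *ost-1*, the SPARC homolog, went from 652, 615 and 678 to 61.2, 69.4 and 60.6 FPKM (-3.35 ± 0.06 (SE), limma adjusted p = 6.34e-10). *unc-52*, the perlecan that anchors muscle, went from 93.5, 91.3 and 101 to 4.27, 4.80 and 3.40 FPKM (-4.50). The syndecan gene *sdn-1* was not called (0.88).

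Most neuronal genes fell. Of 16 neuronal genes 14 fell and 1 rose (median -2.21), and 4 of the 16 passed the filter through L4 alone. *ida-1*, of dense core vesicles, went from 20.8, 20.54 and 18.9 to 1.66, 2.09 and 1.75 FPKM (-3.39 ± 0.12 (SE), limma adjusted p = 1.52e-08). *snb-1*, synaptobrevin, was not called, with 173, 181 and 176 FPKM at L4 and 271, 287 and 278 FPKM in day 3 adults (0.66), and *unc-119* rose from 9.76, 8.54 and 6.76 to 22.7, 21.05 and 21.9 FPKM (1.39). With *snb-1* in it, the sum of the 12 neuron markers was 351 to 380 FPKM at L4 and 328 to 345 FPKM in day 3 adults. Of the FMRFamide-like neuropeptide genes 28 of 30 fell and none rose, with *flp-28* going from 66.2, 72.2 and 73.1 to 19.1, 21.2 and 20.2 FPKM (-1.80). Of the neuropeptide-like genes 41 of 55 fell, 10 of the 55 having passed the filter through L4 alone. *nlp-24* went from 484, 438 and 502 to 5.17, 6.01 and 4.42 FPKM (-6.50 ± 0.11 (SE), limma adjusted p = 6.34e-10), whereas *nlp-56* rose from 2.11, 1.39 and 3.98 to 7.61, 7.75 and 9.85 FPKM (1.83). Insulin-like peptide genes were mostly lower (15 of 22), but 13 of the 22 passed the filter through L4 alone and 4 through day 3 alone. *ins-37* was at 14.7, 11.96 and 13.7 FPKM in the L4 libraries and at 0.191, 0.0926 and 0.694 FPKM in the day 3 libraries (-5.25). The 4 that rose were *ins-19*, *ins-34*, *ins-23* and *ins-22*, and *ins-19* went from 0.128, 0 and 0.137 to 6.66, 5.17 and 4.48 FPKM (4.96). The insulin receptor gene *daf-2* rose from 18.2, 16.9 and 19.2 to 61.5, 62.1 and 62.8 FPKM (1.77 ± 0.06 (SE), limma adjusted p = 1.1e-08), and its target factor *daf-16* was not called (0.27).

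**Figure D4:**
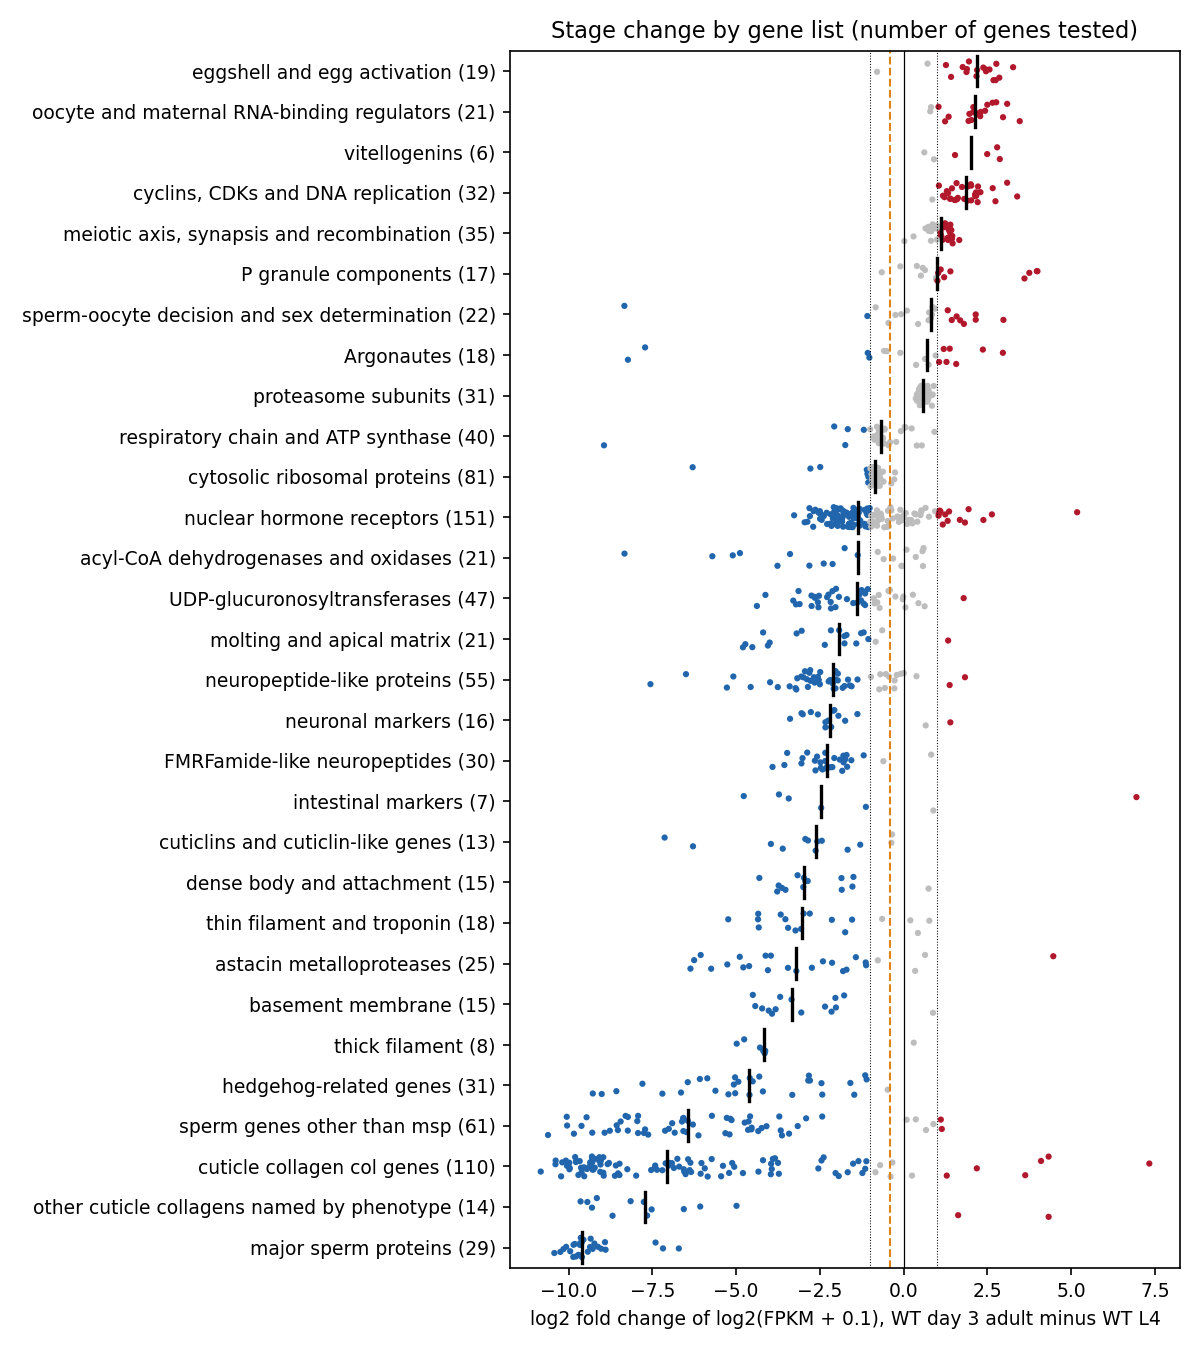
Log2 fold change of each gene tested (day 3 adult minus L4, on log2(FPKM + 0.1)) in 30 gene lists ordered by their median, which a black bar marks, with the number of genes tested in brackets. Red points were called higher, blue points lower and grey points not called, dotted lines stand at -1 and 1, and the dashed orange line at -0.40 is the median of all genes tested, so that eggshell genes lie at the top with a median of 2.19 and major sperm proteins at the bottom with -9.60.

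Of 7 intestinal genes 5 fell and 1 rose, in the tissue that makes the yolk proteins, and the sum of 6 intestine markers was 1865 to 2221 FPKM at L4 and 423 to 484 FPKM in day 3 adults. *act-5*, the actin of the microvilli, was at 1435, 1519.5 and 1258 FPKM in the L4 libraries and at 104.8, 113 and 100.3 FPKM in the day 3 libraries (-3.72 ± 0.07 (SE), limma adjusted p = 1.12e-09). *ifb-2*, an intermediate filament of the same border, went from 356, 373 and 311 to 13.3, 13.6 and 10.98 FPKM (-4.77), and the peptide transporter gene *pept-1* from 85.4, 92.7 and 74.0 to 8.24, 7.18 and 7.64 FPKM (-3.43). The metallothionein genes were not among the falls, with *mtl-1* higher as given above and *mtl-2* at 163, 167 and 160.4 FPKM in the L4 libraries and at 303, 328 and 278 FPKM in the day 3 libraries (0.89, not called). Among digestive proteases, 8 of 18 tested fell (44.4%, near the 41.5% of all genes) and 1 rose, and 5 were lower after rescaling. The aspartyl protease gene *asp-1* went from 3433, 3542 and 3039 to 492, 499.9 and 432 FPKM (-2.81), and the cathepsin B gene *cpr-1* rose from 215, 194 and 189 to 469, 426 and 426 FPKM (1.14).

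Genes of innate defence were mixed. C-type lectins bind sugars, and 13 rose and 41 fell of 77 tested (16.9% and 53.2%, against 22.7% and 41.5% of all genes tested). Of the 77, 19 passed the filter through L4 alone and 6 through day 3 alone. *clec-87* rose from 174, 173 and 206 to 1439, 1392 and 1476 FPKM (2.97 ± 0.07 (SE), limma adjusted p = 1.94e-09), and *clec-88* and *clec-91* rose by 3.24 and 3.09. At the other end *clec-123* went from 30.8, 32.2 and 33.7 to 0.0269, 0.0783 and 0.0978 FPKM (-7.62). Of lysozyme and saposin-like genes 4 rose and 12 fell of 32 (12.5% and 37.5%, both below the shares of all genes), and the most abundant, *spp-5*, was at 1221, 1172 and 987 FPKM in the L4 libraries and at 728, 709 and 722 FPKM in the day 3 libraries and not called (-0.64). Epidermal antimicrobial peptide genes fell in 19 of 31 cases, 10 of the 31 having passed the filter through L4 alone and 3 through day 3 alone. *fipr-21* went from 335, 327 and 331 to 27.5, 21.3 and 19.4 FPKM (-3.87). *cnc-7*, of the caenacin peptides, had no read at L4 and 5.33, 9.31 and 4.20 FPKM in day 3 adults, at least 11.9-fold higher against the floor of 3 reads per library. It was 1 of the 3 most abundant day 3 genes without a read at L4, with *scl-20* (at least 27.9-fold) and *sgnh-1* (at least 22.3-fold).

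Stress genes showed no common direction. Of 14 heat shock genes 2 rose and 5 fell, against 22.7% and 41.5% of all genes tested. Their median of -0.08 turned to 0.16 after rescaling, with 3 lower genes. *sip-1*, a small heat shock protein of oocytes and embryos, rose from 268, 285 and 302 to 2644, 2959.8 and 2658 FPKM (3.27 ± 0.06 (SE), limma adjusted p = 5.83e-10), and shares 123 exon bases with *F43D9.8*. *hsf-1*, the heat shock transcription factor, rose from 23.2, 22.9 and 24.3 to 65.9, 67.1 and 69.0 FPKM (1.52). *hsp-16.2*, an inducible chaperone, was low at both stages, at 2.07, 2.26 and 1.78 FPKM in the L4 libraries and at 0.661, 1.36 and 0.976 FPKM in the day 3 libraries. Its log2 fold change of -1.004 was called in 9 of 14 settings, and was lost with a pseudocount of 1 FPKM, after rescaling and without L4 replicate 1 (-0.99), L4 replicate 2 (-0.93) or day 3 replicate 1 (-0.76). Of 10 superoxide dismutase, catalase and peroxiredoxin genes the catalase gene *ctl-3* rose from 3.20, 2.22 and 3.61 to 8.47, 8.43 and 9.07 FPKM (1.52) and *sod-3* from 0.622, 0.459 and 0.302 to 1.06, 1.02 and 1.55 FPKM (1.24, lost with a pseudocount of 1 FPKM). *sod-3* passed the filter through day 3 alone, so its direction follows from the filter. *prdx-2*, the most abundant, was not called (0.43). Nor were the catalase genes *ctl-2* (means of 47.5 FPKM at L4 and 23.7 FPKM in day 3 adults, -0.99) and *ctl-1* (-0.57).

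The oxidative stress factor *skn-1*, whose maternal RNA also specifies early blastomeres, was at 48.2, 50.6 and 46.6 FPKM in the L4 libraries and at 95.4, 97.8 and 95.6 FPKM in the day 3 libraries. Its log2 fold change of 0.99 fell just short of the threshold, and was called after rescaling (1.22) and without L4 replicate 2 (1.02). Its target *gst-4* was at 33.4, 38.3 and 35.5 FPKM in the L4 libraries and at 29.1, 31.6 and 28.6 FPKM in the day 3 libraries and not called (-0.26), and *gst-10* fell from 133, 124 and 128 to 21.3, 22.4 and 24.2 FPKM (-2.50) while *gst-7* rose from 75.7, 71.9 and 75.2 to 237, 220.0 and 234 FPKM (1.63). Glutathione S-transferase and synthesis genes as a whole had 4 higher and 17 lower of 37 tested, a lower share near the 41.5% of all genes. Of 9 genes listed for *skn-1* and its pathway, *gst-7* rose and *gst-10* fell. After rescaling 3 were higher, namely *gst-7* (1.87), *skn-1* itself and *wdr-23* (1.07). Cytochrome P450 genes rose and fell in equal number (13 and 13 of 40), and the most abundant of them, *cyp-31A2*, which makes lipids of the eggshell, rose from 21.3, 20.2 and 22.7 to 93.6, 90.1 and 98.7 FPKM (2.13), though it has a near copy, *cyp-31A3*. UDP-glucuronosyltransferases fell in 32 of 47 cases and 1, *ugt-45*, rose (1.79). *ugt-47* went from 91.9, 99.6 and 77.0 to 4.96, 3.49 and 4.22 FPKM (-4.38).

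Genes of lipid and proline metabolism mostly fell or were not called. Of 21 acyl-CoA dehydrogenase and oxidase genes 11 fell and none rose, though 4 were higher at an unadjusted p under 0.05 (median -1.37), and *acdh-1*, the most abundant, went from 1717, 1704 and 1458 to 389.5, 351 and 379 FPKM (-2.12 ± 0.07 (SE), limma adjusted p = 9.88e-09). *acdh-8* went from 50.6, 48.6 and 50.2 to 0.0364, 0.106 and 0.0330 FPKM (-8.33). Of 16 desaturase and elongase genes 9 fell, and the falls of *fat-7* (-1.16) and *elo-1* (-1.23) were lost after rescaling (-0.92 and -0.99), while the desaturase gene *fat-5* rose from 9.95, 10.8 and 8.67 to 25.99, 26.02 and 25.98 FPKM (1.40). Of 5 genes of proline metabolism 4 fell. *prdh-1*, the first enzyme of proline catabolism, fell from 13.2, 12.2 and 14.8 to 2.29, 2.31 and 2.33 FPKM (-2.48). *alh-6*, the next enzyme and the gene mutated in the other strain, was at 68.4, 70.3 and 70.5 FPKM in the L4 libraries and at 33.7, 33.9 and 31.8 FPKM in the day 3 libraries. Its log2 fold change was -1.07 ± 0.05 (SE), limma adjusted p = 4.36e-08, a call that was lost after rescaling (-0.84). *pycr-1*, on the synthetic side, fell from 70.1, 64.6 and 64.03 to 3.14, 3.79 and 2.77 FPKM (-4.32). Of the genes for riboflavin uptake and FAD synthesis the transporter gene *rft-1* fell (-1.72), the transporter gene *rft-2* rose (1.36), and *flad-1*, the FAD synthase, was not called (0.88) but passed after rescaling (1.11).

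Few genes of central energy metabolism passed the threshold. Of 40 respiratory chain and ATP synthase genes 5 fell and none rose, though 4 were higher at an unadjusted p under 0.05, with *atp-2*, a subunit of the ATP synthase, at 1328, 1359 and 1279 FPKM in the L4 libraries and at 868, 855 and 822 FPKM in the day 3 libraries (-0.64, not called). The largest fall was that of the cytochrome c gene *cyc-2.2*, from 75.1, 82.2 and 83.3 to 0.110, 0.107 and 0 FPKM (-8.94). Of 34 glycolysis and TCA cycle genes 3 rose and 6 fell, and the median of -0.14 turned to 0.10 after rescaling. The glyceraldehyde-3-phosphate dehydrogenase genes moved apart: *gpd-1* and *gpd-4* on chromosome II rose by 2.43 and 2.18, and *gpd-2* and *gpd-3* on the X fell (-1.48 and -1.51). *gpd-1* went from 101, 95.7 and 106 to 564, 527 and 539.7 FPKM and *gpd-3* from 291, 265 and 282 to 100.2, 96.7 and 96.8 FPKM, though each pair is nearly identical and its reads may be split. *pfk-1.2*, a phosphofructokinase, went from 7.04, 7.91 and 9.46 to 0, 0.0198 and 0.0186 FPKM (-6.19), and the aldolase gene *aldo-2* was not called (0.33).

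Ribosomal protein and proteasome genes moved as blocks, each in its own direction. All 81 cytosolic ribosomal protein genes had a negative change, with a median of -0.86, and 8 passed the fold threshold, of which 3 after rescaling. They took 10.8% to 11.2% of the reads at L4 and 5.82% to 6.15% in day 3 adults. The medians after rescaling were -0.62 for ribosomal and 0.81 for proteasome genes. *rpl-13* was at 4717, 4642 and 4896 FPKM in the L4 libraries and at 2571, 2603 and 2508 FPKM in the day 3 libraries (-0.89, not called). Some of the ribosomal falls stood apart from the block, namely *rpl-42* (7.44, 6.54 and 9.58 FPKM at L4 and no read in day 3 adults, at least 29-fold lower) and the X-linked copies *rpl-11.2* (-2.78) and *rpl-25.1* (-2.49). All 31 proteasome subunit genes had a positive change (median 0.58) and none was called by limma or limma-voom. All 31 had a limma adjusted p of at most 6.42e-05, but their log2 fold changes, from 0.36 to 0.90, stayed under the fold threshold. After rescaling 4 were called higher, namely *rpn-9* (1.13), *rpt-1* (1.102), *rpn-11* (1.08) and *rpt-3* (1.08). *pbs-1*, a subunit of the core particle, was at 292, 293 and 299.7 FPKM in the L4 libraries and at 429, 448 and 421 FPKM in the day 3 libraries (0.55 ± 0.04 (SE), limma adjusted p = 8.75e-07).

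Nuclear hormone receptor genes, a large family of ligand-regulated factors in nematodes, mostly fell, with 89 lower and 14 higher of 151 tested. Of the 151, 28 passed the filter through L4 alone and 2, *nhr-2* among them, through day 3 alone. *nhr-114*, which acts in the intestine and germline, went from 152, 151 and 122 to 18.6, 18.2 and 17.5 FPKM (-2.95 ± 0.08 (SE), limma adjusted p = 4.89e-09). *nhr-2*, a receptor of the early embryo, rose from 0.416, 0.185 and 0.305 to 13.8, 12.2 and 16.38 FPKM (5.18 ± 0.25 (SE), limma adjusted p = 6.89e-08), the largest rise of the family.

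The shares of genes called were also counted by chromosome. Of 1744 protein-coding genes tested on the X, 17.4% rose and 54.7% fell, and the median change was -1.29 on the log2 scale. Of 11153 on the autosomes, 24.1% rose and 39.5% fell, with a median of -0.24. Among the autosomes chromosome V had the lowest median, -0.91, with 18.9% higher and 48.6% lower. Chromosomes I and III had the highest medians, 0.15 and 0.22. In worms the X carries few genes that are expressed through most of germline development, and chromosome V holds many large families of nematode-specific genes. These shares describe the genes tested, and no test was made between chromosomes.

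**Figure D5:**
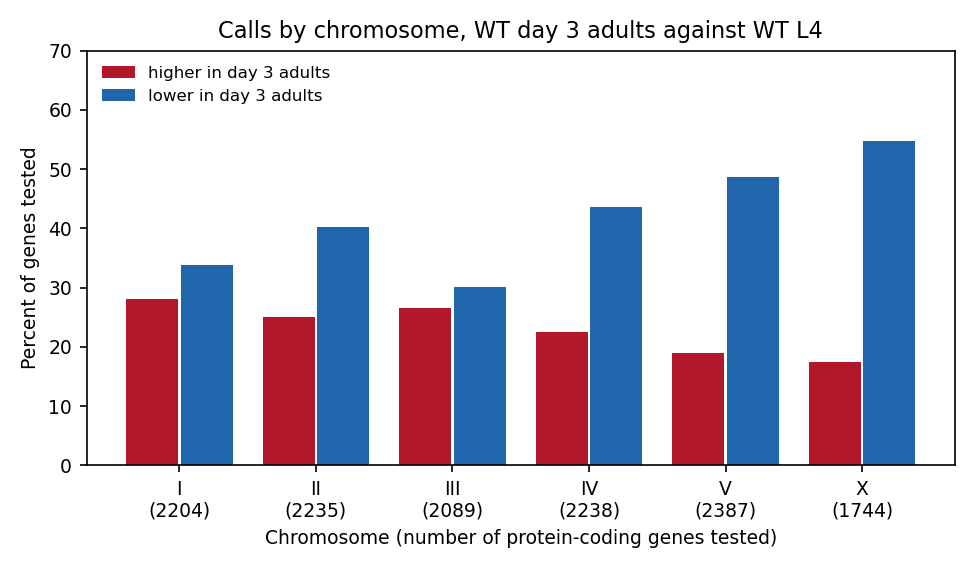
Percent of protein-coding genes tested that were called higher (red bars) or lower (blue bars) in WT day 3 adults than at L4 on each chromosome, with the number of genes tested in brackets. The X has the largest share of lower genes, 54.7%, and the smallest share of higher genes, 17.4%, and chromosome III the smallest share of lower genes, 30.1%.

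The WT change was set beside that of the mutant, in which the same stages were compared. In a fit of all 12 libraries, 422 of 14497 genes (2.91%) differed in stage change between *alh-6* and WT, 140 toward a higher and 282 toward a lower value in *alh-6* day 3 adults relative to L4. Without WT L4 replicate 3 the lower count was 182. Of the 8787 genes called in WT 327 differed, and 19 of these had the opposite sign of change in *alh-6*. The WT and *alh-6* changes share no library, and across 13674 genes, which are not independent replicates, their Pearson correlation was 0.978. Among genes that averaged 10 FPKM in a group, *lpr-4*, *rml-3* and *nlp-34* had the most negative differences. *lpr-4*, a lipocalin of the apical matrix, changed by -2.23 in WT and by more in the mutant, a difference of -3.77 ± 0.48 (SE), limma adjusted p = 0.000925. *rml-3* differed by -3.35 and *nlp-34* by -3.34. In the other direction *col-93* fell by less in the mutant (1.76 ± 0.29 (SE), limma adjusted p = 0.00722), and the changes of *vit-6*, *vit-2* and *vit-5* went further there, by 1.098, 1.02 and 1.05 on the log2 scale. Without a library in turn, between 297 and 441 genes differed.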

How the data were processed

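Whole worm RNA was sequenced in 12 libraries, of which the 6 WT libraries carry the stage comparison and all 12 the comparison of genotypes. Per the file headers the authors gave each gene an FPKM in every library, its reads divided by its length and by the library's reads on genes. They also deposited a signal column per group, the mean of read counts divided by size factors, which was used here only to recover gene lengths. Columns of the authors' own fold changes and p-values were not used, and the number of other columns not used was 0. The submitters' processing notes name CASAVA 1.8, Bowtie2 2.2.3, TopHat2 2.0.12, HTSeq 0.6.1, DESeq 1.18.0 and the build ce11. The treatment of reads that map to several genes and the use of strand are not given in the sources used here. Symbols and positions came from the annotation of WBcel235, release 115, which held 46364 of the 46726 IDs and gave symbols for 43623.

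Whole reads were recovered from FPKM and length for 100.0% of values above 0 within a tolerance of 0.05 reads, which gave the depth of each library (19906810 to 22502295 reads in WT) and the reads behind low values.

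Genes with at least 1 FPKM in at least 3 of the 6 libraries were tested on log2(FPKM + 0.1) with limma 3.58.1 (R 4.3.3; trend and robust variance). A call needed a change of at least 2-fold and an adjusted p (Benjamini-Hochberg) under 0.05. The genotype difference was the contrast of stage changes in a fit of all 12 libraries. The procedure was tested on simulated data. A floor of 3 reads per library was used for genes without a read in a stage. Alternatives were pseudocounts of 1 and 0.01 FPKM, no filter, rescaling by median ratios, no fold threshold, a replicate block, limma-voom on the recovered reads, 1 fit of all 12 libraries and each library left out in turn with the same genes.

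The genes named were the 10 largest rises and falls among called protein-coding genes that averaged 10 FPKM in the higher stage, were above 0 in every WT library and did not overlap, the 5 most abundant genes of each stage, the 3 most abundant genes without a read in the other stage, the called members of each list with the largest rise and fall and its most abundant member, a set of hallmark genes, and the 3 genes with the largest genotype difference in each direction. Further members named beside a list's count were chosen after their values were seen. The comparison and the 55 gene lists were chosen with earlier results of these data known, and 14 listed symbols were not matched. No sequences are printed.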

Additional observations from a re-analysis of the deposited data

Results flagged for a closer look

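In 23 of 189 named genes tested for it, the stage change differed between *alh-6* and WT by the interaction term of the fit of all 12 libraries (limma adjusted p under 0.05 and at least 2-fold). Each difference is given as the *alh-6* change minus the WT change on the log2 scale. It was called for 2.91% of all genes tested.

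Of 24 molting and apical matrix genes in that fit 12 were called with a more negative change in the mutant and none with a more positive one, against 2.91% of all genes called in either direction. All 6 furrow collagens were called more negative, and of 34 hedgehog-related genes 13 were called more negative and 2 more positive. Of 114 *col* genes, 10 were called more positive and 8 more negative, and of 17 cuticlins 2 were called more negative. The lipocalin gene *lpr-4* differed by -3.77, with a mean of 2.73 FPKM in WT L4 and 10.8 FPKM in *alh-6* L4 libraries. The furrow collagen genes *dpy-7*, *dpy-10* and *dpy-8* differed by -3.21, -1.91 and -1.46 (780 exon bases of *dpy-10* are shared with another gene), and *rol-6* by -1.17. In this order, their L4 means were 4.64, 3.09, 4.78 and 40.8 FPKM in WT and 16.8, 9.91, 15.4 and 103.6 FPKM in *alh-6*. Their day 3 means were 0.799, 5.40, 0.0588 and 0.0959 FPKM in WT and 0.288, 4.50, 0.0813 and 0.115 FPKM in *alh-6*. The mean of *dpy-10* thus rose in WT and fell in the mutant. The matrix genes *noah-1* and *let-653* differed by -2.72 and -1.79, the cuticlin gene *cut-2* by -1.89, the molting genes *mlt-10* and *ptr-18* by -1.09 and -1.22, and the hedgehog-related gene *grl-16* by -1.12. *rml-3* differed by -3.35 and *nlp-34* by -3.34. The collagen gene *col-93* went the other way, by 1.76.

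Differences toward higher values in the mutant were also found for *unc-54* (1.26), *gst-4* (1.182) and the yolk genes *vit-6* (1.098), *vit-5* (1.05) and *vit-2* (1.02). *nspd-4* differed by 1.85, with a mean of 106.2 FPKM in WT L4 and no read in WT day 3 adults, so the size depends on the pseudocount. *C15B12.8* differed by 3.14, with WT means of 0.321 FPKM at L4 and 0.609 FPKM at day 3 against 0.271 and 12.2 FPKM in *alh-6*. *F56D6.9* differed by 2.94, and 237 of its exon bases are shared with *oac-21*. The 21U-RNA gene *21ur-10387* differed by 5.54, but rests on a mean of 4.67 reads at L4 in WT.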

How the results depend on the processing

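The counts of 3109 higher and 5678 lower genes and of 422 genotype differences moved by more than 1.5 times only when the fold threshold was dropped, which gave 5404 higher genes and 1070 differences. Without a library in turn, 3049 to 3156 genes were higher, 5618 to 5692 were lower and 297 to 441 differed between genotypes. A pseudocount of 1 FPKM gave 2886 higher and 5155 lower genes, and limma-voom on the recovered reads 3122 and 5710. Medians changed sign for heat shock (0.16) and glycolysis and TCA cycle genes (0.095) after rescaling and for vulva and uterus genes without L4 replicate 3 (a range of -0.0025 to 0.17 without a library in turn), and so did *eef-1A.1* (0.0017) after rescaling. For the named genes 2583 values under the alternatives kept direction and call, 16 values of 10 genes lost a call and 32 values of 24 genes gained one. The replicate block gave 3111 higher and 5682 lower genes and 377 differences. Same-numbered WT libraries of the stages did not deviate together (correlations of -0.04, -0.052 and -0.025), so the numbers were not taken as pairs. Genes under 1 FPKM rest on few reads, and their fold changes depend on the pseudocount.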

Other observations

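Gene families defined by the prefix of their name were counted where at least 10 members were tested. The families given here were chosen after their values were seen, and carry no test as families. Of 12 *fbxb* genes tested, which encode F-box proteins, 11 were under 1 FPKM in every L4 library and passed the filter through day 3 alone, so that their rise follows from the filter, and *fbxb-97* reached only 1.05, 1.02 and 1.19 FPKM in day 3 adults. Of 16 *sdz* genes, found as transcripts of the early embryo that depend on SKN-1, 13 passed through day 3 alone as well, and *sdz-28* went from 0.236, 0.199 and 0.126 FPKM to 6.32, 6.12 and 6.07 FPKM. Of 18 *skr* genes 11 rose, with 7 of the 18 tested through day 3 alone, and *skr-8* had 19.3, 18.8 and 22.4 FPKM in day 3 adults after 0 to 0.360 FPKM at L4. The transcripts *vet-2* and *vet-6*, known from early embryos, rose by 5.73 and 5.43 on the log2 scale.

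Genes of basic nuclear functions rose by less. Of 17 *taf* genes of the TFIID complex 13 rose (median 1.43), of 20 *mdt* genes of the Mediator complex 13 (median 1.15) and of 25 *npp* genes of the nuclear pore 14 (median 1.04), and none of these fell. After rescaling 22 *npp* genes were higher. Of 11 *ced* genes of programmed cell death and engulfment 10 rose, and *ced-5* went from 12.5, 12.8 and 12.7 FPKM to 27.5, 28.2 and 29.4 FPKM. No mitochondrial ribosomal protein gene was called by limma or limma-voom, with 40 *mrpl* and 29 *mrps* genes tested and medians of -0.10 and -0.21. At an unadjusted p under 0.05, 9 *mrpl* and 3 *mrps* genes were higher and 17 of each lower, while the cytosolic ribosomal proteins had a median of -0.86.

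Other families mostly fell. All 11 *abu* genes tested, which are near copies of each other, passed the filter through L4 alone, and *abu-10* went from 19.8, 17.2 and 27.7 FPKM to no read in day 3 adults. Of 19 *nep* genes, which encode neprilysin-like peptidases, 18 fell (median -3.39) and 14 passed through L4 alone, of 23 *twk* potassium channel genes 21 fell and 15 passed in that way, of 20 *lgc* ligand-gated channel genes 17 fell and 14 passed in that way, and of 13 *glb* globin genes 12 fell and 8 passed in that way. The V-ATPase genes split, with 12 of 20 *vha* genes lower and 2 higher, and *vha-6*, an intestinal subunit, went from 198, 209 and 171 FPKM to 35.1, 34.1 and 35.9 FPKM.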
